A study of Homo sapiens with 12 samples.

Results

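The NRF2 antioxidant genes described here are 9 genes, picked by name out of 60666 human gene rows. They are NFE2L2, KEAP1, GCLC, GCLM, NQO1, HMOX1, TXNRD1, SRXN1 and SLC7A11. All 9 were found and all 9 passed the filter on low counts, which 20791 human genes passed. The group was proposed because GCLC was lower after loss of SPT6 and not after loss of PAF1, so the GCLC values are given as a description with no test. The other 8 genes were tested, but they were chosen with earlier results of these data known, and their calls are not independent support for any pattern.

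The cells were DLD-1, a human colorectal adenocarcinoma line, and every group carried OsTIR1, a plant receptor that marks AID-tagged proteins for destruction once auxin is present. One line had SPT6 tagged (genotype SPT6-AID OsTIR1) and the other PAF1 (PAF1-AID OsTIR1). SPT6 chaperones histones for elongating RNA polymerase II, and PAF1 is a subunit of an elongation complex on the same polymerase. Each line was sampled after 0, 2 and 6 h with 500 µM auxin, with 2 libraries per group and 12 in all, numbered 1 and 2 for SPT6-AID and 3 and 4 for PAF1-AID. There was no untagged line in auxin, so a response to auxin itself cannot be told apart from loss of the tagged protein in a single line. The sources used here do not say whether each line is 1 clone, or whether the libraries came from separate cultures, so p-values reflect only library-to-library spread, possibly technical. The degron removes protein, and mRNA of the tagged gene does not check the depletion.

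NRF2, the protein of NFE2L2, is a transcription factor that is made continuously and destroyed quickly. KEAP1 binds it and hands it to a CUL3 ubiquitin ligase. Oxidants and electrophiles modify KEAP1, NRF2 then accumulates, pairs with a small MAF protein and binds antioxidant response elements near genes for glutathione synthesis, thioredoxin recycling, quinone reduction and heme breakdown. Colorectal cancer cells, like other cells in culture, use these genes to hold reactive oxygen and toxic compounds in check.

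The antioxidant response element has the core TGACNNNGC, and the matches upstream of the members are shown because they tell which members carry the textbook NRF2 sequence close to a start. RefSeq (GRCh38.p14) start sites were matched for 7 of the 9 genes; HMOX1 and SLC7A11 were not matched. The 250 bases before each start were searched on both strands. A match was found in 4 of the members' 10 windows, against 10.9% of all 35114 windows of the same length. By gene this was GCLM, KEAP1 and TXNRD1, 3 of 7, against 3609 of 27303 genes. The KEAP1 matches precede the downstream of its RefSeq starts (10502771) and lie inside the gene, since the other start is at 10503356. Capitals mark the core, read 5′ to 3′ on the strand named.
GCLM, chr1:93909446-93909475, plus strand, 34 bases before the start: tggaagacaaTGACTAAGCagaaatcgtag
KEAP1, chr19:10502784-10502813, plus strand, 31 bases before the downstream start: caggtcaccaTGACTAAGCagagccgggcg
KEAP1, chr19:10502806-10502835, minus strand, 54 bases before the downstream start: acttttattgTGACACGGCgggcgcccggc
TXNRD1, chr12:104215670-104215699, plus strand, 99 bases before the first start: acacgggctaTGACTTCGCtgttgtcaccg
TXNRD1, chr12:104286919-104286948, minus strand, 102 bases before the second start: agagtcagaaTGACAAAGCagaaatccact

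GCLM and KEAP1 had the same 9 letters, TGACTAAGC, near a start. No match lay in the window of GCLC, NFE2L2, NQO1 or SRXN1, which says only that the letters are not in those 250 bases. The related AP-1 letters TGACTCA or TGAGTCA were in 4.2% of all windows and in 0 of the members' windows. Among 63 other pathway genes with a RefSeq start, 18 had a TGACNNNGC match.

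Total counts per library ran from 31957953 to 115904780, of which fly reads were 1661945 to 5564723. Summed colorectal epithelial markers ran from 3430 to 6270 CPM, with VIL1 under the filter. Of these 9 genes, LGALS4 rose at 6 h in both lines, on only 4 to 35 reads per library. CDX2 rose at 6 h in PAF1-AID cells (0.75, adjusted p = 0.027, edgeR), where its response also differed between lines (-1.11, adjusted p = 0.0437, edgeR). Blood markers summed to 7.54 to 41.5 CPM, and the SPT6-AID libraries at 6 h held 12.5 and 41.5 CPM. Most of that was HBB, at 10.5 and 39.7 CPM, against 7.91 and 24.7 at 0 h. HBB did not pass (adjusted p = 0.56, edgeR). Of the 6, CD79A (0.326 and 0.629 CPM) and CD14 (1.30 and 0.873 CPM) rose at 6 h in SPT6-AID cells. PTPRC, CD3E and LYZ were under the filter. Endothelial markers summed to 0.39 to 2.41 CPM. Of these 4, only PECAM1 rose at 6 h in SPT6-AID cells, from 2 and 0 reads at 0 h to 21 and 35. Fibroblast markers summed to 0.618 to 3.51 CPM, with 2 of 6 at 0 in all libraries. The mitochondrial share of reads was 2.39% and 2.45% at 0 h, 2.56% and 2.68% at 2 h, and 3.85% and 3.92% at 6 h in SPT6-AID cells. In PAF1-AID cells it was 1.63% and 2.16%, then 2.65% and 2.54%, then 3.16% and 2.22%. The part of these markers and of the mitochondrial share in the results was not tested.

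At 0 h the members differed widely in level. Levels are compared between genes as RPKM, which scales the reads of a gene by library size and by its deposited transcript length. TXNRD1 (84.8 ± 18.9 RPKM in SPT6-AID cells, SD, n = 2) and NQO1 (75.6 ± 11.9) were the most abundant, and they did not differ beyond their spread. KEAP1 (33.8 ± 3.35), NFE2L2 (23.9 ± 1.00) and GCLM (12.7 ± 0.495) followed, each clear of its neighbours. SLC7A11 (7.32 ± 2.90), GCLC (5.665 ± 0.207) and HMOX1 (5.51 ± 0.625) did not differ beyond their spread, and SRXN1 was lowest at 0.679 ± 0.678. PAF1-AID cells had the same order apart from GCLC and HMOX1, which were within their spread of each other at 5.46 ± 0.163 and 5.50 ± 0.331, and SLC7A11 there (11.35 ± 9.26) was also within its spread of GCLM (13.3 ± 1.58).

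In SPT6-AID cells 6 h after auxin, NFE2L2 and KEAP1 mRNA fell, GCLC was lower, and the other 6 members did not pass the test. The comparison addresses what loss of SPT6 does to the NRF2 regulator, its inhibitor and its targets. Of the 8 members tested, 2 fell and 0 rose at an adjusted p under 0.05 (edgeR's quasi-likelihood test), where 16.4% of all genes tested fell and 8.76% rose. With 8 genes, 2 is close to that background. NFE2L2, KEAP1 and GCLC were lower, but the GCLC fall chose the set and adds no support. Not passing does not show that the other 6 members stayed level. Errors were wide for SRXN1 (-0.17 ± 0.943), SLC7A11 (-0.27 ± 0.621) and NQO1 (0.38 ± 0.344). Scaled by fly reads, GCLM (-0.55) and TXNRD1 (-0.59) passed as lower. With replicate number fitted as a block, NQO1 (0.38) passed as higher.

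**Figure D1:**
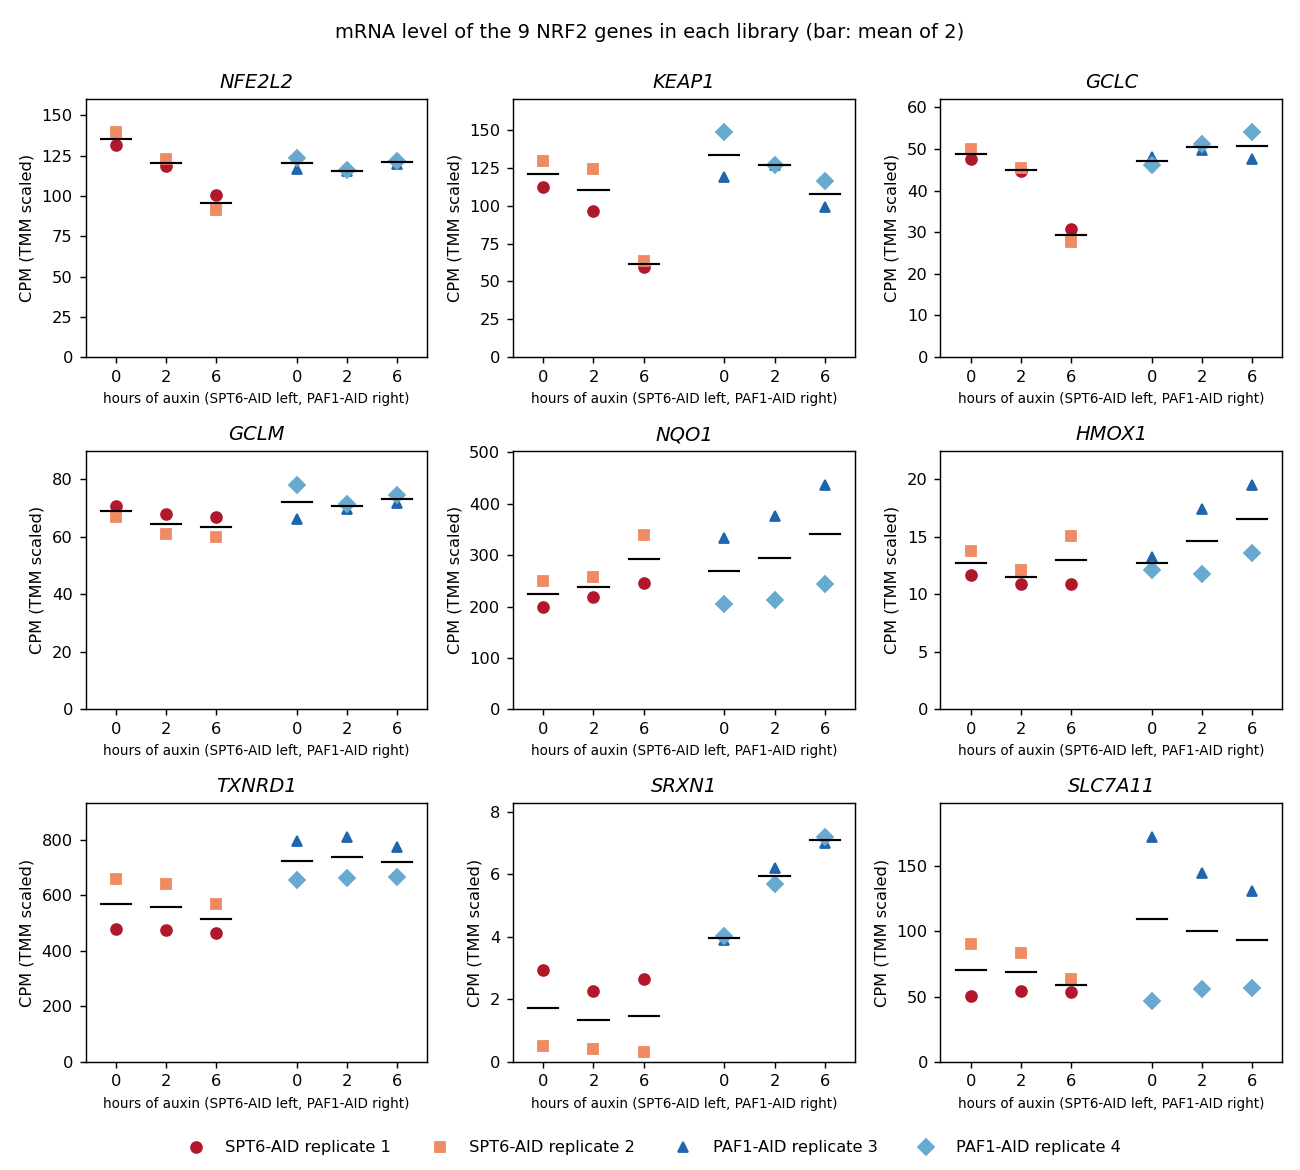
mRNA level of the 9 genes in every library, in CPM (read counts scaled to a common library size by TMM), against hours of auxin, with SPT6-AID libraries on the left and PAF1-AID libraries on the right of each panel; points are libraries and bars are means of 2. NFE2L2, KEAP1 and GCLC sit lowest in both SPT6-AID libraries at 6 h, while SRXN1, NQO1 and SLC7A11 are spread by replicate number.

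NFE2L2 (ENSG00000116044, chromosome 2, 177227595 to 177392697, minus strand, GRCh38) encodes NRF2 itself. In SPT6-AID cells its level in CPM was 131.5 and 139.5 at 0 h, 118.4 and 122.8 at 2 h, and 100.3 and 91.3 at 6 h. The 3 times did not overlap, and both libraries were lower at each later time. The change at 6 h was -0.50 ± 0.105 on the log2 scale (SE, adjusted p = 0.00626, edgeR). Within a replicate number it was -0.39 and -0.61. Without SPT6-AID 0h replicate 2 the value was -0.47 and the call was lost (adjusted p = 0.0511, edgeR). At 2 h the change was -0.17 ± 0.105 and did not pass (adjusted p = 1, edgeR).

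In PAF1-AID cells NFE2L2 measured 116.9 and 123.4 CPM at 0 h, 115.5 and 115.9 at 2 h, and 120 and 121.8 at 6 h. The 0 h and 6 h libraries overlapped, and the 6 h change was 0.01 ± 0.105 (adjusted p = 0.973, edgeR). The difference between the 6 h responses of the lines was -0.51 ± 0.148 and did not pass (adjusted p = 0.0935, edgeR). With replicate number fitted as a block, that difference passed (-0.51, adjusted p = 0.00355, edgeR). AGPS lies on the opposite strand and overlaps the NFE2L2 gene span, with 184% as many reads as NFE2L2 in all; the library kit keeps strand, but the strand setting of the counting is not given in the sources used here.

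KEAP1 (ENSG00000079999, chromosome 19, 10486120 to 10503741, minus strand) encodes the sensor that holds NRF2 for destruction. In SPT6-AID cells it measured 112.4 and 129.4 CPM at 0 h, 96.2 and 124 at 2 h, and 59.7 and 63.6 at 6 h. The 0 h and 2 h libraries overlapped, and both 6 h libraries lay below all 4 of the earlier ones. The 6 h change of -0.97 ± 0.162 passed the test (adjusted p = 0.00181, edgeR) and was the largest fall among the tested members in this comparison. In PAF1-AID cells KEAP1 measured 118.8 and 148.4 CPM at 0 h, 126.8 and 127.1 at 2 h, and 99.1 and 116 at 6 h. The 6 h libraries were again below the 0 h libraries, and the change of -0.31 ± 0.160 did not pass (adjusted p = 0.257, edgeR). The responses of the lines differed by -0.66 ± 0.227 at 6 h, which did not pass either (adjusted p = 0.159, edgeR). With replicate number fitted as a block, the PAF1-AID change at 6 h and this difference both passed (adjusted p = 0.0129 and 0.00138, edgeR).

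The balance of inhibitor to regulator mRNA moved down at 6 h. The KEAP1 to NFE2L2 ratio of RPKM values was 1.36 and 1.47 at 0 h in SPT6-AID cells, 1.29 and 1.6 at 2 h, and 0.945 and 1.11 at 6 h. In PAF1-AID cells it was 1.61 and 1.91, then 1.74 and 1.74, then 1.31 and 1.51. In each line the 6 h ratios were below both 0 h ratios, without overlap. No test was made of these ratios.

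GCLC (ENSG00000001084, chromosome 6, 53497341 to 53616970, minus strand) encodes the catalytic subunit of glutamate-cysteine ligase, the rate-limiting enzyme of glutathione synthesis. In SPT6-AID cells it measured 47.6 and 50.1 CPM at 0 h, 44.6 and 45.3 at 2 h, and 30.8 and 27.7 at 6 h. The 3 times did not overlap. The 6 h change was -0.74 ± 0.121 on the log2 scale, and the 2 h change -0.12 ± 0.119. In PAF1-AID cells GCLC measured 48.0 and 46.0 CPM at 0 h, 49.6 and 51.2 at 2 h, and 47.5 and 54.0 at 6 h, with changes of 0.10 ± 0.120 and 0.11 ± 0.119. The 6 h responses differed by -0.85 ± 0.170. These are the values that chose the gene, and no test is given.

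GCLM (ENSG00000023909, chromosome 1, 93885205 to 93909456, minus strand) encodes the modifier subunit, which lowers the catalytic subunit's need for glutamate and its inhibition by glutathione. It measured 70.7 and 66.8 CPM at 0 h in SPT6-AID cells, 68.0 and 61.1 at 2 h, and 66.7 and 59.9 at 6 h. Both 6 h libraries were just below both 0 h libraries, and the change of -0.12 ± 0.124 was within its error (adjusted p = 0.531, edgeR). PAF1-AID libraries ran from 65.9 to 78.0 CPM over all times, with a 6 h change of 0.02 ± 0.124 (adjusted p = 0.938, edgeR).

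The mRNAs of the catalytic and modifier subunits moved apart at 6 h. The GCLC to GCLM ratio of RPKM values was 0.424 and 0.472 at 0 h in SPT6-AID cells, 0.414 and 0.467 at 2 h, and 0.291 in both libraries at 6 h. PAF1-AID ratios were 0.459 and 0.371 at 0 h, 0.448 and 0.452 at 2 h, and 0.417 and 0.456 at 6 h. All 10 other libraries lay above the 0.291 of the 6 h SPT6-AID libraries. The ratio contains GCLC and shares its selection, so it is a description only.

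**Figure D2:**
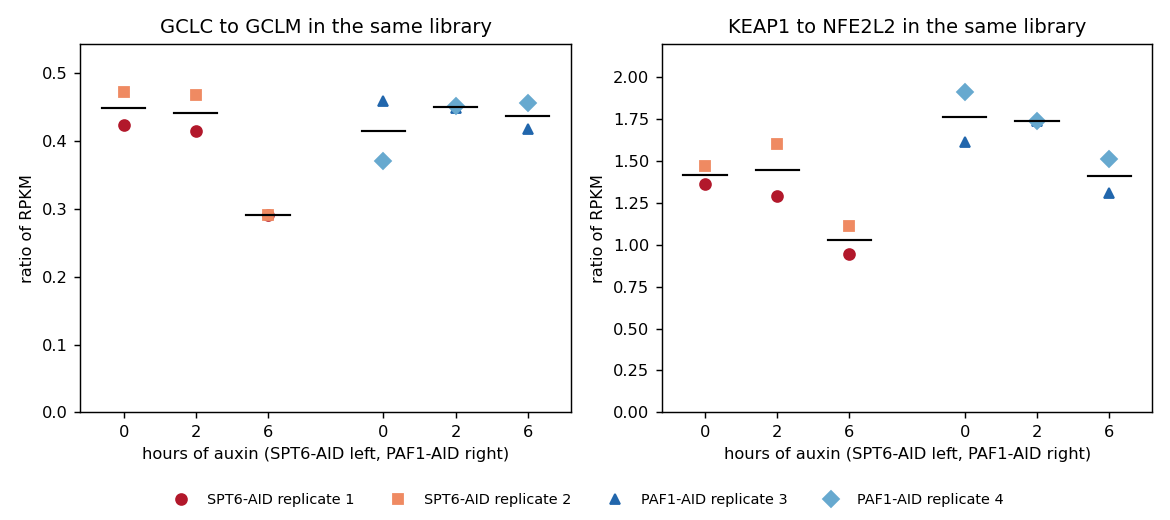
Ratio of RPKM values within each library, GCLC to GCLM on the left and KEAP1 to NFE2L2 on the right, against hours of auxin for SPT6-AID (left in each panel) and PAF1-AID (right); points are libraries and bars are means of 2. The GCLC to GCLM ratio is 0.291 in both SPT6-AID libraries at 6 h, below the other 10 libraries.

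SLC7A11 (ENSG00000151012, chromosome 4, 138164097 to 138242349, minus strand) encodes the transporter that brings in cystine, the source of the cysteine in glutathione. In SPT6-AID cells it measured 50.8 and 90.3 CPM at 0 h, 54.2 and 83.8 at 2 h, and 53.7 and 63.6 at 6 h. In PAF1-AID cells it measured 172.6 and 46.4 CPM at 0 h, 144.9 and 55.7 at 2 h, and 130.7 and 56.9 at 6 h. Replicate 4 was lower than replicate 3 at all 3 times, by 2.81-fold in the mean, a gap exceeded by 0.58% of 13280 genes. Times overlapped in each line. The 6 h changes of -0.27 ± 0.621 in SPT6-AID and -0.22 ± 0.618 in PAF1-AID cells did not pass (adjusted p = 0.792 and 0.874, edgeR).

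TXNRD1 (ENSG00000198431, chromosome 12, 104215779 to 104350305, plus strand) encodes cytosolic thioredoxin reductase, which recycles thioredoxin with NADPH. SPT6-AID libraries measured 479.3 and 658.3 CPM at 0 h, 473.7 and 639.8 at 2 h, and 461.8 and 568.4 at 6 h. PAF1-AID libraries measured 793.4 and 655 CPM at 0 h, 809.4 and 661.3 at 2 h, and 773.1 and 664.1 at 6 h. Times overlapped in both lines, and the 6 h changes were -0.14 ± 0.211 and -0.01 ± 0.211 (adjusted p = 0.665 and 0.984, edgeR). The same-strand pseudogene RPL18AP3 lies inside the TXNRD1 span with 24.9% as many reads, and how reads shared between them were counted is not given in the sources used here.

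SRXN1 (ENSG00000271303, chromosome 20, 646615 to 653370, minus strand) encodes sulfiredoxin, which restores over-oxidised peroxiredoxins. It was the least abundant member, and its SPT6-AID libraries stood apart by replicate number: 2.93, 2.25 and 2.63 CPM in replicate 1 at 0, 2 and 6 h, against 0.505, 0.402 and 0.314 in replicate 2. The gap of 5.99-fold ranked 15 among 13280 genes, and replicate 2 rested on 27, 43 and 9 reads. In PAF1-AID cells SRXN1 measured 3.90 and 4.01 CPM at 0 h, 6.19 and 5.69 at 2 h, and 6.998 and 7.19 at 6 h. The PAF1-AID times did not overlap, and both libraries were higher at each later time. The changes of 0.58 ± 0.900 at 2 h and 0.84 ± 0.899 at 6 h did not pass (adjusted p = 1 and 0.622, edgeR) in the model that takes 1 spread per gene over all groups, the SPT6-AID pairs included. Fitted on PAF1-AID libraries alone, the 6 h change was 0.83 and passed (adjusted p = 0.0259, edgeR). All PAF1-AID libraries were above all SPT6-AID libraries at 0 h, by 1.2 ± 0.925, which did not pass (adjusted p = 0.879, edgeR).

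NQO1 (ENSG00000181019, chromosome 16, 69706996 to 69726951, minus strand) encodes a quinone reductase widely used as a readout of NRF2. SPT6-AID libraries measured 199.6 and 249.7 CPM at 0 h, 219.4 and 257 at 2 h, and 246.7 and 338.9 at 6 h. PAF1-AID libraries measured 334.1 and 204.6 CPM at 0 h, 376 and 212.1 at 2 h, and 437 and 243.2 at 6 h. Each replicate number was highest at 6 h in both lines, yet the times overlapped in both. PAF1-AID replicate 4 was 1.73-fold below replicate 3. The 6 h changes were 0.38 ± 0.344 and 0.34 ± 0.344 and did not pass (adjusted p = 0.463 and 0.605, edgeR). Within a replicate number they were 0.31 and 0.44 in SPT6-AID and 0.39 and 0.25 in PAF1-AID cells. With replicate number fitted as a block, both changes passed (adjusted p = 0.000864 and 0.00441, edgeR). The labels do not say that a number marks a batch. Scaled by the fly reads that every library held, the 6 h changes were -0.077 in SPT6-AID and -0.096 in PAF1-AID cells. Neither passed (adjusted p = 0.892 and 0.87, edgeR), and the medians of all genes were then -0.394 and -0.368.

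HMOX1 (ENSG00000100292, chromosome 22, 35380361 to 35394214, plus strand) encodes heme oxygenase, which breaks down heme and is also repressed by BACH1. SPT6-AID libraries measured 11.7 and 13.7 CPM at 0 h, 10.9 and 12.1 at 2 h, and 10.9 and 15.1 at 6 h. PAF1-AID libraries measured 13.2 and 12.1 CPM at 0 h, 17.4 and 11.8 at 2 h, and 19.5 and 13.6 at 6 h. At 6 h both PAF1-AID libraries were above both 0 h libraries, replicate 4 by little, and the change of 0.38 ± 0.249 did not pass (adjusted p = 0.38, edgeR). With replicate number fitted as a block, that change passed (0.36, adjusted p = 0.0281, edgeR). The SPT6-AID change at 6 h was 0.03 ± 0.250 (adjusted p = 0.949, edgeR). Scaled by fly counts, HMOX1 at 6 h was -0.43 in SPT6-AID and -0.018 in PAF1-AID cells, and neither passed (adjusted p = 0.217 and 0.967, edgeR).

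None of the 8 tested members passed in SPT6-AID cells after 2 h. There 0.0866% of all genes rose and 0.462% fell. The same held at 2 h in PAF1-AID cells (0.0673% rose and 0.0818% fell) and at 6 h in PAF1-AID cells (4.20% rose and 6.70% fell). Between the 2 lines at 0 h, 0 members passed, with 0.00481% of genes higher and 0.0289% lower in PAF1-AID. With no filter on low counts, SRXN1 (1.2, adjusted p = 0.0461) and SLC7A11 (0.63, adjusted p = 0.0388, edgeR) passed there as higher in PAF1-AID. In the difference of responses, SPT6-AID minus PAF1-AID, 0 members passed at 2 h (0.0144% higher, 0.0192% lower) or at 6 h (0.620% higher, 3.12% lower). With replicate number fitted as a block, NFE2L2, KEAP1 and SRXN1 passed as lower in the 6 h difference. There the block called 1317 of all 20791 genes higher and 3196 lower. In PAF1-AID cells it called SRXN1 at 2 h, and KEAP1, NQO1, HMOX1 and SRXN1 at 6 h. Of all genes it called 480 higher and 972 lower at 2 h there, and 3827 and 4131 at 6 h. Counted at an unadjusted p under 0.05 by edgeR, 2 members, NFE2L2 and KEAP1, were in the 6 h difference. In the other 5 comparisons named in this paragraph the count was 0. With DESeq2 size factors, edgeR put 3244 of all 20791 genes under that p in the 6 h difference. DESeq2 called 0 members in all 6 comparisons. The 2 h and 6 h comparisons of a line share its 0 h libraries.

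**Figure D3:**
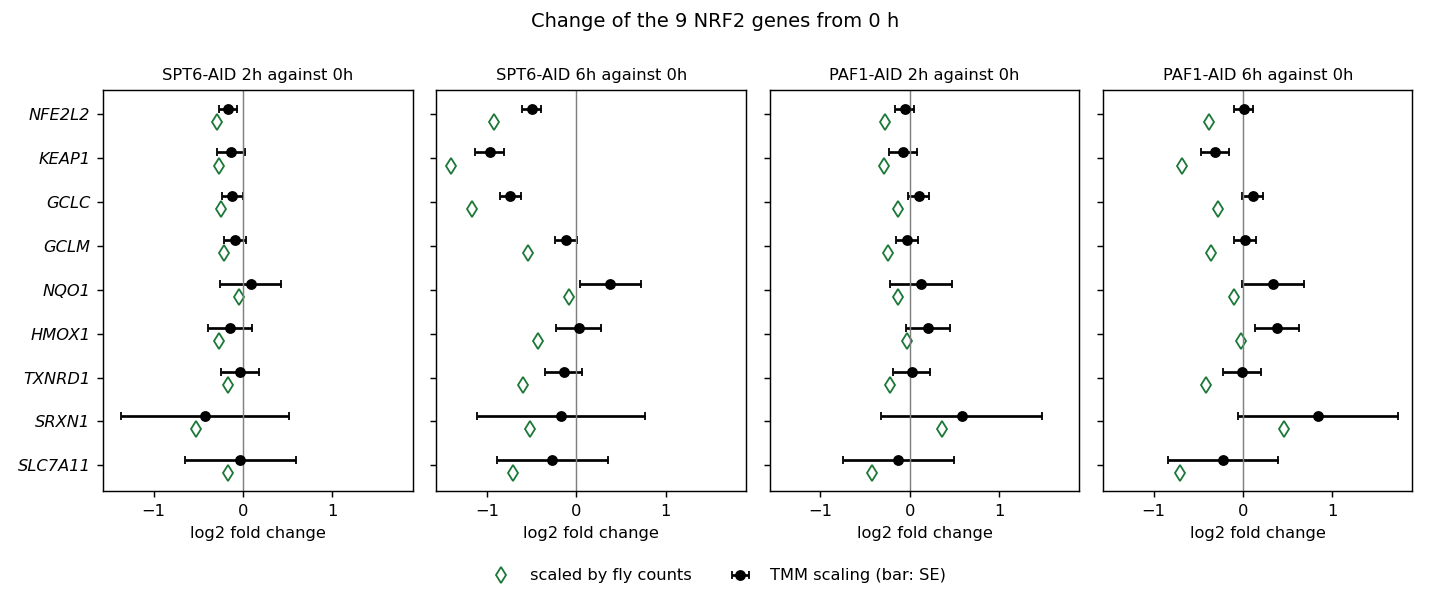
log2 fold change from 0 h of the 9 genes at 2 and 6 h in each line; filled points with SE bars are scaled by TMM and open diamonds by total fly counts. At 6 h in SPT6-AID cells KEAP1, GCLC and NFE2L2 lie furthest left under both scalings, and the diamonds lie left of the points in every panel.

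Each library also held fly reads, and scaling by their totals lowered every member's change. With fly scaling the median of all genes was -0.394 at 6 h in SPT6-AID cells and -0.368 in PAF1-AID cells, against 0.038 and 0.018 with TMM. Under fly scaling GCLC was -1.16 at 6 h in SPT6-AID and -0.28 in PAF1-AID cells. GCLM (-0.55, adjusted p = 0.0471, edgeR) and TXNRD1 (-0.59, adjusted p = 0.0436, edgeR) then passed as lower in SPT6-AID cells, and KEAP1 (-0.68, adjusted p = 0.0196, edgeR) in PAF1-AID cells. Set against the median shift, GCLM and TXNRD1 lay near the bulk of genes and KEAP1 below it. How the fly material was added is not given in the sources used here. In bulk RNA, fewer cells that express a gene and less RNA per cell cannot be told apart.

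Each gene's level relative to the mean of its line's 0 h libraries was set against that of GCLC over the 12 libraries, and 13279 genes were ranked by the root mean square of the log2 differences. The median gene was at 0.412. The closest were WDR36 (0.048), ZDHHC5 (0.065), AC094103.1 (0.067), DDX42 (0.073) and SHLD2P2 (0.076). WDR36, a small-subunit ribosome biogenesis factor, was -0.66 at 6 h in SPT6-AID and 0.09 in PAF1-AID cells. Among the members NFE2L2 was closest, at rank 172, followed by KEAP1 at rank 1579 and GCLM, the partner subunit, at rank 2314. SRXN1 was furthest, at rank 13032.

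A wider list of 80 other genes of the pathway was described alongside, of which 75 passed the filter; AKR1C1, AKR1C2, AKR1C3, GPX3 and GSTA1 did not. At 6 h in SPT6-AID cells 9 of the 75 rose and 9 fell, with a median of 0.225 against 0.038 for all genes. At 6 h in PAF1-AID cells 6 rose and 1 fell, with a median of 0.137 against 0.018. Of all genes tested, 8.76% rose and 16.4% fell in SPT6-AID, and 4.20% rose and 6.70% fell in PAF1-AID cells. The SPT6-AID counts are close to that background. Neither line's counts were tested against these shares. With fly scaling the splits became 4 higher and 17 lower in SPT6-AID, where all 20791 genes split into 958 higher and 5842 lower. In PAF1-AID cells they became 1 higher and 9 lower, against 296 and 2865 of all genes. With total human counts they were 14 and 9, and 3 and 1, against 1784 and 3081, and 585 and 1616. The SPT6-AID total was 29 without SPT6-AID 6h replicate 1. The PAF1-AID total dropped to 1 without PAF1-AID 6h replicate 3, to 3 without 0h replicate 3 or 6h replicate 4, and to 4 without 0h replicate 4.

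A list of 13 genes covered NRF2 turnover and partners, and also held its competitor BACH1 and the KEAP1 partner PGAM5. Of these 13, 6 fell and 2 rose at 6 h in SPT6-AID cells, with a median of -0.386. Across all genes tested 16.4% fell and 8.76% rose. GSK3B, a kinase that marks NRF2 for a second degradation route, measured 114.3 and 110.4 CPM at 0 h and 54.0 and 42.5 at 6 h (-1.22 ± 0.130, adjusted p = 0.000223, edgeR). The substrate receptors of that route fell too, with changes of -0.89 ± 0.163 for BTRC (adjusted p = 0.003) and -0.86 ± 0.171 for FBXW11 (adjusted p = 0.00473, edgeR). BACH1, a repressor that competes with NRF2 for its sites, measured 77.4 and 86.0 CPM at 0 h, 50.1 and 51.4 at 2 h, and 44.6 and 32.5 at 6 h (-1.08 ± 0.155, adjusted p = 0.00081, edgeR). Both BACH1 libraries were already lower at 2 h, and the change of -0.69 ± 0.153 did not pass (adjusted p = 0.0956, edgeR).

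RXRA, a nuclear receptor that binds NRF2, fell (-0.76 ± 0.158), and so did PGAM5, a KEAP1 partner on mitochondria (-0.55 ± 0.126) (adjusted p = 0.00574 and 0.0101, edgeR). CUL3, the scaffold of the KEAP1 ligase, was -0.39 ± 0.152 and did not pass (adjusted p = 0.0917, edgeR). Small MAF partners went the other way. MAFF measured 19.3 and 27.3 CPM at 0 h, 19.04 and 23.01 at 2 h, and 58.7 and 56.5 at 6 h in SPT6-AID cells (1.31 ± 0.174, adjusted p = 0.000575, edgeR). MAFG rose by 0.91 ± 0.131 (adjusted p = 0.000828, edgeR), a call lost with fly scaling (0.50, adjusted p = 0.101, edgeR), and MAFK, at 0.34 ± 0.168, did not pass (adjusted p = 0.173, edgeR).

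In PAF1-AID cells at 6 h 2 of these 13 passed, MAFF and MAFG, both higher, where 4.20% of all genes rose and 6.70% fell. GSK3B and BACH1 were lower there without overlap between 0 h and 6 h, at -0.39 ± 0.128 and -0.45 ± 0.153, and did not pass (adjusted p = 0.0784 and 0.0886, edgeR). MAFF measured 28.3 and 30.4 CPM at 0 h, 45.2 and 49.0 at 2 h, and 42.9 and 46.7 at 6 h (0.61 ± 0.172, adjusted p = 0.0471, edgeR). MAFG rose by 0.56 ± 0.131 (adjusted p = 0.0243, edgeR). With fly scaling neither passed in PAF1-AID cells, MAFF at 0.23 and MAFG at 0.17 (adjusted p = 0.474 and 0.63, edgeR). MAFF passed there in 8 of 20 alternatives and MAFG in 14. In that line the MAFF libraries were already apart from 0 h at 2 h, while in SPT6-AID cells the 2 h libraries overlapped those at 0 h. BTRC and GSK3B passed the test of the difference between lines at 6 h, at -1.19 ± 0.229 and -0.82 ± 0.182 (adjusted p = 0.0244 and 0.0371, edgeR). In that difference 0.620% of all genes tested were higher and 3.12% lower. For BTRC the PAF1-AID libraries measured 33.6 and 38.9 CPM at 0 h and 40.3 and 48.6 at 6 h, so the lines moved apart.

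**Figure D4:**
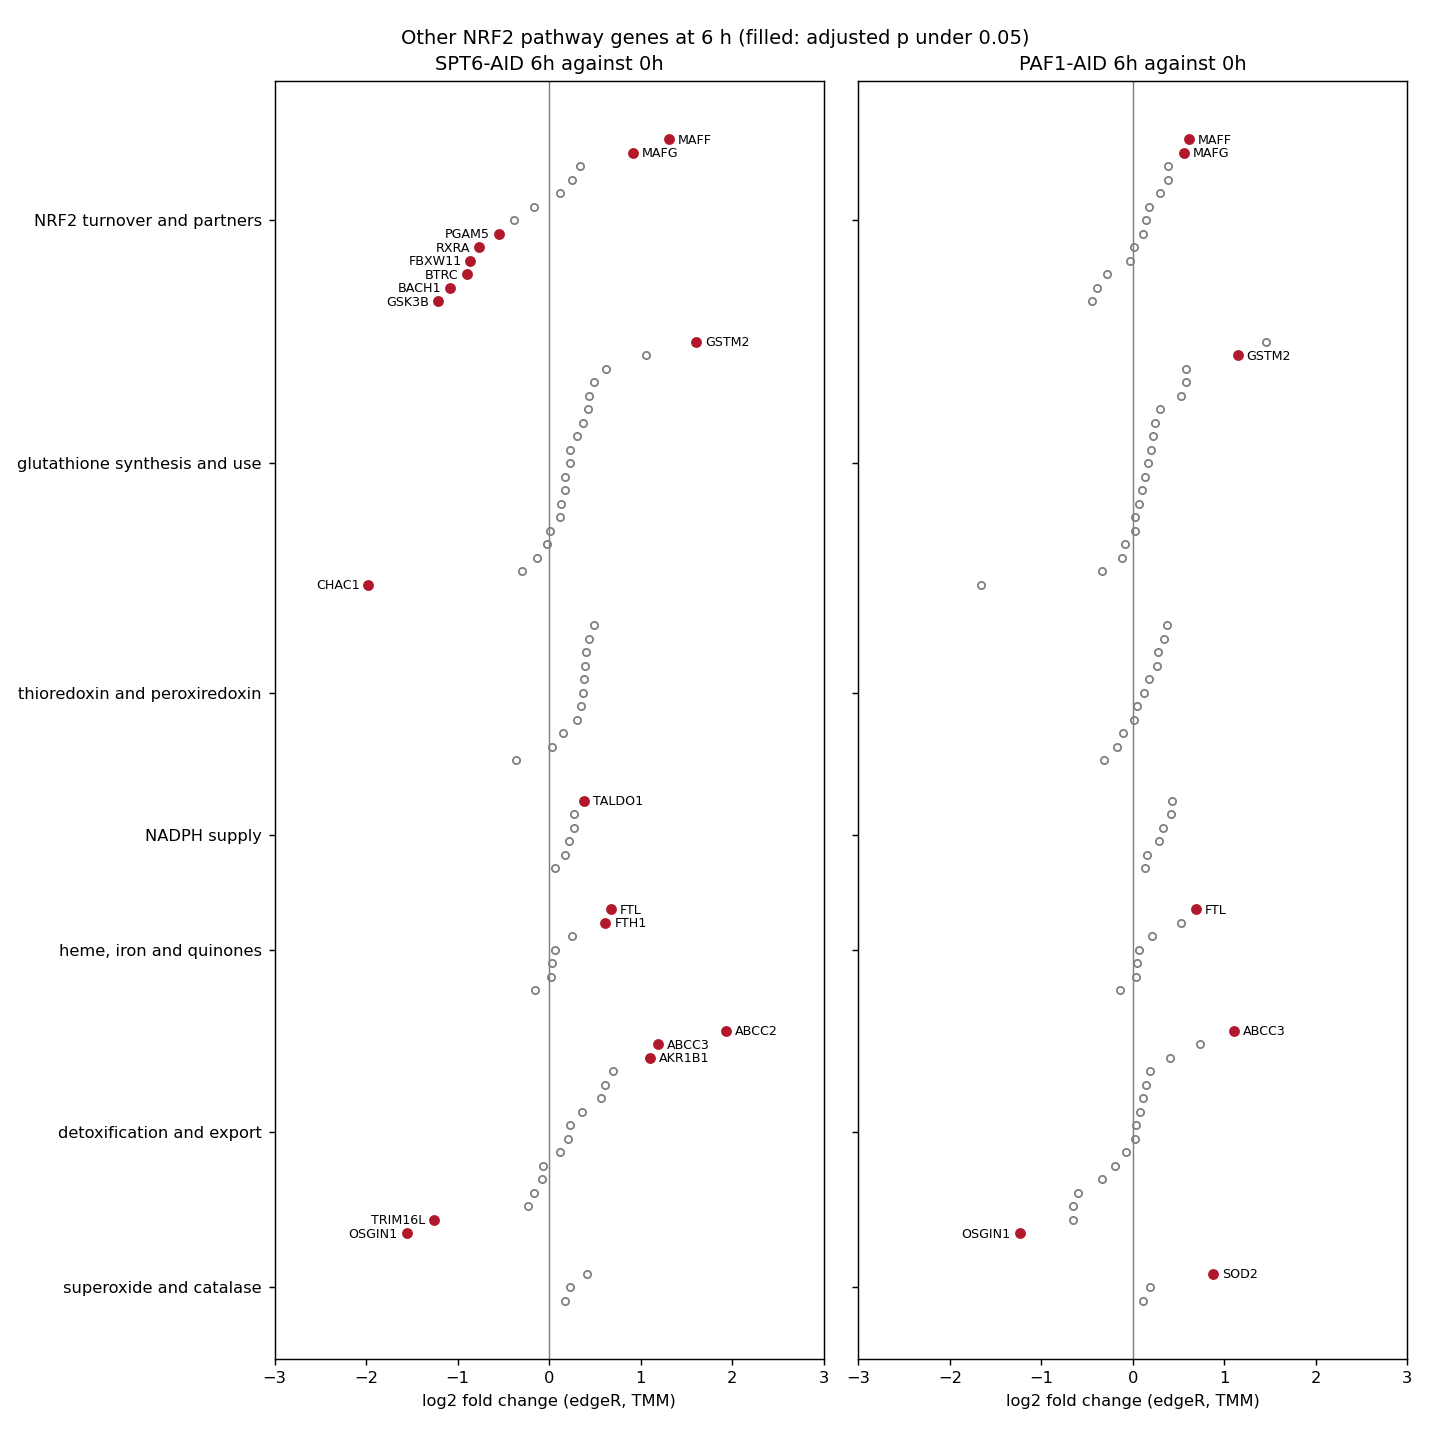
log2 fold change at 6 h of the 75 other pathway genes that were tested, in rows by list and ordered within each list, for SPT6-AID (left) and PAF1-AID (right); filled and named points have an adjusted p under 0.05 in edgeR. The turnover list has 6 genes lower and 2 higher in SPT6-AID and 2 higher in PAF1-AID cells.

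The wider list also held glutathione genes. Among the 19 tested after 6 h without SPT6, 1 rose and 1 fell, with a median of 0.229. Of all genes tested there, 8.76% rose and 16.4% fell, so the list had no excess of calls. GSTM2, a glutathione transferase, measured 4.27 and 3.48 CPM at 0 h and 12.8 and 10.8 at 6 h (1.61 ± 0.284, adjusted p = 0.00244, edgeR), and it also rose in PAF1-AID cells, by 1.146 ± 0.282 (adjusted p = 0.0285, edgeR). The PAF1-AID call for GSTM2 was lost with fly scaling (0.72, adjusted p = 0.198, edgeR). CHAC1, which breaks glutathione down, measured 21.7 and 41.2 CPM at 0 h and 5.13 and 10.97 at 6 h (-1.97 ± 0.555, adjusted p = 0.0251, edgeR). In PAF1-AID cells CHAC1 was -1.66 ± 0.547 and did not pass (adjusted p = 0.0817, edgeR). GSS, which completes glutathione after the ligase step, was 0.23 ± 0.144, and GSR, which reduces oxidised glutathione, was -0.02 ± 0.116 in SPT6-AID cells; neither passed (adjusted p = 0.288 and 0.915, edgeR).

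Of 11 thioredoxin and peroxiredoxin genes, 0 passed at 6 h in either line by edgeR, with medians of 0.367 in SPT6-AID and 0.127 in PAF1-AID cells. Of all genes tested, 8.76% rose and 16.4% fell in SPT6-AID, and 4.20% rose and 6.70% fell in PAF1-AID cells. TXN, thioredoxin itself, was 0.49 ± 0.222 in SPT6-AID cells (adjusted p = 0.137), and PRDX3, a mitochondrial peroxiredoxin, 0.34 ± 0.131 (adjusted p = 0.0819, edgeR). Of 6 genes listed under NADPH supply, TALDO1, a pentose phosphate enzyme, rose in SPT6-AID cells by 0.39 ± 0.126 (adjusted p = 0.047, edgeR). TALDO1 passed there in only 8 of 20 alternatives, and its sign turned to -0.06 with fly scaling.

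FTL and FTH1, the ferritin genes, store iron and are NRF2 targets. Of 7 heme, iron and quinone genes, only these 2 passed at 6 h in SPT6-AID cells, with a list median of 0.062. In PAF1-AID cells 1 of the 7 passed, FTL, with a list median of 0.067. Of all genes tested, 8.76% rose in SPT6-AID and 4.20% in PAF1-AID cells. FTL rose by 0.68 ± 0.197 in SPT6-AID (adjusted p = 0.029, edgeR) and by 0.69 ± 0.197 in PAF1-AID cells (adjusted p = 0.0492, edgeR). FTH1 rose by 0.61 ± 0.162 in SPT6-AID cells (adjusted p = 0.0187, edgeR), and in PAF1-AID cells it was 0.53 ± 0.162 without passing (adjusted p = 0.0644, edgeR). With fly scaling FTL was 0.23 and FTH1 0.16 in SPT6-AID cells and neither passed. In PAF1-AID cells FTL was then 0.28 (adjusted p = 0.41, edgeR), and it passed there in 7 of 20 alternatives. Of 3 superoxide and catalase genes, 1 passed at 6 h in PAF1-AID cells and 0 in SPT6-AID cells. It was SOD2, the mitochondrial superoxide dismutase, which rose in PAF1-AID cells from 127.3 and 129.3 CPM to 223.2 and 248.1 (0.88 ± 0.136, adjusted p = 0.00399, edgeR). In SPT6-AID cells SOD2 was 0.23 ± 0.135 (adjusted p = 0.264, edgeR).

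Of 16 detoxification and export genes, SPT6-AID cells had 3 higher and 2 lower after 6 h. Among all genes tested 8.76% were higher and 16.4% lower, and the counts were not tested against these shares. ABCC2, an exporter of glutathione conjugates, measured 2.11 and 2.22 CPM at 0 h and 7.89 and 8.66 at 6 h (1.93 ± 0.258, adjusted p = 0.000575, edgeR). In PAF1-AID cells ABCC2 ran from 2.57 to 3.61 CPM at 0 h and from 4.58 to 5.74 at 6 h, higher without passing. Its relative ABCC3 rose in both lines, by 1.19 ± 0.137 in SPT6-AID and 1.10 ± 0.138 in PAF1-AID cells (adjusted p = 0.000303 and 0.00217, edgeR). With fly scaling ABCC3 kept its call in SPT6-AID cells and lost it in PAF1-AID cells (0.71, adjusted p = 0.0627, edgeR). OSGIN1, a stress-induced growth inhibitor, fell in both, with changes of -1.56 ± 0.263 and -1.24 ± 0.258 (adjusted p = 0.00193 and 0.0142, edgeR). TRIM16L fell in SPT6-AID cells (-1.25 ± 0.187, adjusted p = 0.00101, edgeR). In PAF1-AID cells TRIM16L ran from 28.7 to 35.1 CPM at 0 h and from 20.3 to 21.8 at 6 h, lower without passing.

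AKR1B1, aldose reductase, went opposite ways in the lines. It measured 1.39 and 1.12 CPM at 0 h and 2.39 and 3.04 at 6 h in SPT6-AID cells (1.11 ± 0.255, adjusted p = 0.01, edgeR), a call lost with fly scaling (0.65, adjusted p = 0.0968, edgeR). In PAF1-AID cells it measured 2.76 and 2.64 at 0 h and 1.83 and 1.61 at 6 h (-0.65 ± 0.250, adjusted p = 0.132, edgeR). The groups did not overlap within either line, and the difference of responses was 1.75 ± 0.357 (adjusted p = 0.0287, edgeR). In that difference 0.620% of all genes tested were higher and 3.12% lower. The 3 differences between lines, BTRC, GSK3B and AKR1B1, depended on single libraries: 0 genes passed without SPT6-AID 0h replicate 1, SPT6-AID 0h replicate 2, SPT6-AID 6h replicate 2, PAF1-AID 0h replicate 3 or PAF1-AID 6h replicate 4. The count was 1 when PAF1-AID 6h replicate 3 or PAF1-AID 0h replicate 4 was left out, and 6 without SPT6-AID 6h replicate 1.

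At 2 h the wider list had 0 calls by edgeR in both lines. Of all genes tested, 0.0866% rose and 0.462% fell in SPT6-AID, and 0.0673% rose and 0.0818% fell in PAF1-AID cells. An unadjusted p under 0.05 was reached by 8 genes in SPT6-AID and 5 in PAF1-AID cells, and DESeq2 called 1 and 2. Among all genes, edgeR with DESeq2 size factors put 1519 and 1520 of 20791 under that p. DESeq2 called 55 higher and 454 lower of 15954 in SPT6-AID, and 66 and 208 of 16760 in PAF1-AID cells. Without SPT6-AID 6h replicate 1, or without SPT6-AID 6h replicate 2, edgeR called 1 gene at 2 h in SPT6-AID cells. In the 2 h difference and at 0 h between lines edgeR also made 0 calls. An unadjusted p under 0.05 was reached there by 2 and 8 genes, and DESeq2 called 0 and 2. Among all genes, edgeR with DESeq2 size factors put 527 and 1366 of 20791 under that p. DESeq2 called 7 higher and 50 lower of 16760 in the 2 h difference, and 28 and 59 of 19581 at 0 h.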

How the data were processed

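The authors deposited 1 table of whole-number read counts per gene for 12 poly(A) RNA-seq libraries, not normalized, made per the submitters' processing notes with cutadapt 1.14, STAR 2.7.5 and featureCounts 2.0.0 on GRCh38 and BDGP6 (fly). The members and gene lists were chosen with earlier results of these data known. Fly rows (17807) were kept out of the fit. Human genes passing filterByExpr (20791 of 60666) were scaled by TMM and fitted in edgeR 4.0.16 (R 4.3.3) as 6 group means with 6 residual degrees of freedom. Contrasts used the quasi-likelihood test with Benjamini-Hochberg adjustment over all genes and a threshold of 0.05. SE was derived from the log2 change and its F statistic. Scripts were tested on simulated data. Named genes were the 9 members, the 5 genes closest to GCLC and, of the lists, up to 6 called genes per direction and comparison with 0 h (up to 4 between lines) by size of change, averaging 1 or more in log2 CPM, both libraries moving alike. FTL, FTH1, TALDO1, FBXW11, RXRA, PGAM5 and all genes named without a call were chosen after their values were seen. Libraries of a group were no copies (chi-square per degree of freedom 37.7 to 69.9). Positions come from GENCODE on GRCh38. Alternatives were other scalings, filters, DESeq2 1.42.0, fewer libraries, a replicate block and leaving out each library. The values of 1 listed gene are not reported here.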

Additional observations from a re-analysis of the deposited data

Results flagged for a closer look

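The response to auxin differed between the lines at 6 h, by a test of the difference itself (edgeR's quasi-likelihood test), for 3 genes of the wider list. Of the 75 tested, 1 was higher and 2 were lower. Of all genes tested, 0.620% were higher and 3.12% lower in that difference, so the 3 calls are close to that background. BTRC, a receptor that sends NRF2 for destruction, had a log2 difference of -1.19, SPT6-AID minus PAF1-AID. GSK3B, the kinase upstream of it, had -0.82, and AKR1B1, aldose reductase, had 1.75. All 3 adjusted values lost the threshold with fly scaling (BTRC 0.152, GSK3B 0.292, AKR1B1 0.117 as adjusted p, edgeR). BTRC and AKR1B1 each passed in 11 of 20 alternatives and GSK3B in only 5, while the signs of all 3 held in all 20.

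GCLC moved opposite ways at 2 h, with both SPT6-AID libraries below and both PAF1-AID libraries above their 0 h levels. The log2 difference was -0.22. Each change was about the size of its SE, -0.12 ± 0.119 and 0.10 ± 0.120. With fly scaling both were negative, at -0.25 in SPT6-AID and -0.13 in PAF1-AID cells, so the opposite directions depend on the scaling. This difference was not tested, since GCLC chose the group.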

How the results depend on the processing

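Of 139 counts of called genes in the wider list recomputed, 103 stayed within 1.5 times and 36 did not. With no filter on low counts the counts were 2 (SPT6-AID 2 h, from 0), 1 (PAF1-AID 2 h, from 0), 11 (PAF1-AID 6 h, from 7), 5 (6 h difference, from 3) and 3 (0 h between lines, from 0). DESeq2's Wald test gave 1, 2, 11, 7 and 2 for the same 5. Total human counts gave 4 at PAF1-AID 6 h and 1 in the 6 h difference, where fly scaling and the smaller fit each gave 0. A minimum of 1 CPM gave 28 at SPT6-AID 6 h (from 18). Leaving out 1 library gave 0 to 1 at SPT6-AID 2 h, 12 to 29 at SPT6-AID 6 h, 1 to 10 at PAF1-AID 6 h and 0 to 6 in the 6 h difference. The cause was not tested.

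With the replicate number as a block the counts were 8 and 49 (SPT6-AID 2 and 6 h), 6 and 34 (PAF1-AID), and 1 and 20 (differences). Over all 20791 genes the block called 4927 higher and 5756 lower at SPT6-AID 6 h, and 3827 and 4131 at PAF1-AID 6 h. Deviations of same-numbered libraries correlated at 0.491 to 0.66, but the labels do not say that a number marks a batch. The block also called NQO1 at 6 h in both lines (0.38 and 0.32), SRXN1 (0.58 at 2 h, 0.84 at 6 h), KEAP1 (-0.31) and HMOX1 (0.36) in PAF1-AID cells, and the 6 h differences of NFE2L2 (-0.51, adjusted p = 0.00355, edgeR), KEAP1 (-0.66, adjusted p = 0.00138, edgeR) and SRXN1 (-1.08). For 0 h between lines no paired analysis was possible because the lines share no numbers.

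Of 1251 member values recomputed, 103 changed sign, 88 of them from a size of at most 0.2, and none was a called value.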
